A study of Homo sapiens with 30 samples.

Results

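Gene expression was compared between VHL-null and VHL-restored RCC4 cells, a human renal carcinoma line, at 6 matched times on 12 of the 30 arrays of the series (20 of the 30 are RCC4). The 12 arrays were chosen by their labels: every RCC4 array at 1, 2, 4 or 6 h of hypoxia, or at 1 or 4 h of reoxygenation after 18 h of hypoxia, so that each time gave 1 pair of arrays, 1 of each genotype. The VHL-null cells are labelled RCC4 (vhl null), and the VHL-restored cells are the same line with wildtype vhl reintroduced. Both were grown as monolayers and held below 0.01% oxygen in an anoxic incubator, so all 12 arrays are of cells that had been in hypoxia and none is a normoxic control. Arrays at 0 h and at 18 h without reoxygenation were left out, except as references for the check of the time labels. Each genotype and time has 1 array, and the labels do not say how many clones of VHL-restored cells were used. The spread behind every test is therefore that of the genotype difference over 6 times, not over separate cultures.

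The VHL protein is the substrate-binding part of a ubiquitin ligase. It recognises the alpha subunits of hypoxia-inducible factors (HIF) after prolyl hydroxylases have modified them, a step that needs oxygen, and sends them for degradation. Clear-cell renal carcinomas commonly lose VHL, and HIF target genes for glycolysis, pH control, angiogenesis and matrix are then active in oxygen as well. In cells with working VHL the same genes are switched on when oxygen falls, so the genotypes are known to differ most in oxygen and to draw closer as hypoxia goes on.

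Values are linear array intensities, and an entry without a number is written here as null and was taken as 0. The 12 arrays had 31.0% to 40.4% null entries, the highest share on the VHL-restored array at 4 h of reoxygenation. The pattern of blank control entries divided the arrays into 2 array sets. The 2 h and 6 h pairs lay in set 1, with a median listed intensity of 156 to 160, and the other 4 pairs lay in set 2, with 206 to 222. Both arrays of a pair always shared a set, so a difference within a pair does not cross sets, but a comparison between pairs can. Of the 6 renal tubule markers on the array, 2 to 4 were above the array median on every array of either genotype. Leukocyte markers reached at most 2 of 7 above the median in either genotype, and 2 of them were null on all 12 arrays. Endothelial markers had 5 of 8 above the median on every array of both genotypes. The part of other cell types in the results was not tested. The probe sets of these arrays are not placed along their genes here, so the VHL signal described later does not test the genotype labels.

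The arrays labelled 1 h and 4 h did not follow the order of their labels. Across the tested genes, the VHL-restored array labelled 1 h had a Pearson correlation of 0.987 with the 18 h array of its genotype and array set, against 0.942 with the 0 h array. For the VHL-restored array labelled 4 h the values were 0.977 and 0.929. The arrays labelled 2 h and 6 h went the other way, at 0.961 and 0.971 with 18 h against 0.982 and 0.977 with 0 h. ENO2, the gamma enolase of glycolysis and a HIF target, shows the same in single values. In VHL-restored cells its intensity was 205 and 259 on the 0 h arrays and 909 and 1200 on the 18 h arrays, and it was 1293, 281, 1309 and 611 on those labelled 1, 2, 4 and 6 h. The array labelled 1 h was thus above both 18 h arrays, while the array labelled 2 h was near the 0 h arrays. Whether the labels, the cultures or the array set account for this was not tested, and since the 1 h and 4 h pairs are also the hypoxia pairs of set 2, order in time and array set cannot be told apart. The times are therefore given as labelled, and the counts of called genes and list members are given also without these 2 pairs, when 5.32% of all tested genes were called higher and 3.66% lower. The VHL-restored array at 4 h of reoxygenation also stood apart, with correlations of 0.932 and 0.903 to the 18 h and 0 h arrays, and results were repeated without its pair.

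Many genes differed between the VHL genotypes over the 6 times, while no single time could be tested with 1 array per genotype. Of 7614 tested genes, limma called 1951 (25.6%) at an adjusted p under 0.05, 976 higher (12.8%) and 975 lower (12.8%) in VHL-null cells. Of all tested genes, 29.2% had the same sign in all 6 pairs. The share without overlap between genotypes was not counted, so lack of overlap is only described below. Of the called genes, 1681 had the same sign in all 6 pairs, 838 higher and 843 lower. Most differences were small: 47 genes were higher and 31 lower by 2-fold or more. The even split, 50% of calls higher, depended on centring each array on its median, since 64.9% of calls were higher with no centring and 66.6% with arrays scaled to a common median. The median difference over all tested genes was -0.03 on the log2 scale. Without the pairs labelled 1 h and 4 h, 684 genes were called, 658 of them among the 1951. Without the 4 h reoxygenation pair 1645 were called, 1506 of them among the 1951. Leaving out only the pair labelled 1 h, only that labelled 4 h or only that at 1 h of reoxygenation left 1167, 1261 and 1187 genes.

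SYT13, a synaptotagmin of the family that acts in vesicle trafficking, had one of the largest differences. Its intensities in VHL-null cells were 1327, 707, 1395 and 785 at 1, 2, 4 and 6 h of hypoxia and 1529 and 1256 at 1 and 4 h of reoxygenation. In VHL-restored cells they were 109, 26, 61, 55, 58 and 73 in the same order. Every VHL-null array was well above every VHL-restored array. The difference was 3.87 ± 0.123 (log2, standard error, 6 pairs), or 14.6-fold. SYT13 passed the filter on low values through the VHL-null cells, so no test is read for it. Folds are on the scale of log2(intensity + 16), which understates the change of dim genes.

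EGLN3, one of the prolyl hydroxylases that mark HIF for VHL, was listed only in VHL-null cells. Its intensities there were 347, 37, 334 and 74 in hypoxia and 363 and 402 after reoxygenation, and it was null on all 6 VHL-restored arrays. No fold is given against a group that is null throughout. BCAT1, which starts the breakdown of branched-chain amino acids, came close to this pattern, at 268, 71, 277, 93, 330 and 347 in VHL-null cells against 13, null, null, 2, null and null. Both genes were dimmer on the set 1 arrays, at 2 h and 6 h, than on the other VHL-null arrays. Both passed the filter on low values through the VHL-null cells, so no test is read for either.

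The mitochondrial proteins COXFA4L2 and COXFA4L3 were higher together. COXFA4L2, formerly NDUFA4L2 and a known HIF target, read 608, 846, 586, 836, 606 and 561 in VHL-null cells against 176, 156, 191, 157, 144 and 192. That was 3.60-fold (log2 difference 1.85 ± 0.128, limma adjusted p = 0.000137). COXFA4L3, its paralogue formerly named C15orf48, differed by 1.79 ± 0.0706 (adjusted p = 9.79e-06). For both, the lowest VHL-null array lay above the highest VHL-restored array.

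The other genes with the largest positive differences were LRIG1, a brake on EGF-family receptors, SLC1A3, a glutamate transporter, PTPRE, a tyrosine phosphatase, DNAJC9, a histone co-chaperone, and FUNDC1, a mitophagy receptor. Their log2 differences were 2.50 for LRIG1, 2.40 for SLC1A3, 2.22 for PTPRE, 2.00 for DNAJC9 and 1.86 for FUNDC1. Of the 20 largest genes, 10 in each direction, only LRIG1 and SLC1A3 lost their call without the pairs labelled 1 h and 4 h. The limma adjusted p for LRIG1 was then 0.0655. SLC1A3 passed the filter on low values through the VHL-null cells, so it is counted but no test is read for it. SLC1A3 read 248, 57, 346, 54, 311 and 306 in VHL-null cells and 24, 36, 25, 21, 24 and null in VHL-restored cells. Its difference was thus carried by the 4 pairs of set 2. All 20 kept their call and sign without the 4 h reoxygenation pair. The 20 include genes that passed the filter on low values through 1 genotype, whose calls are counted but not read as tests.

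**Figure D1:**
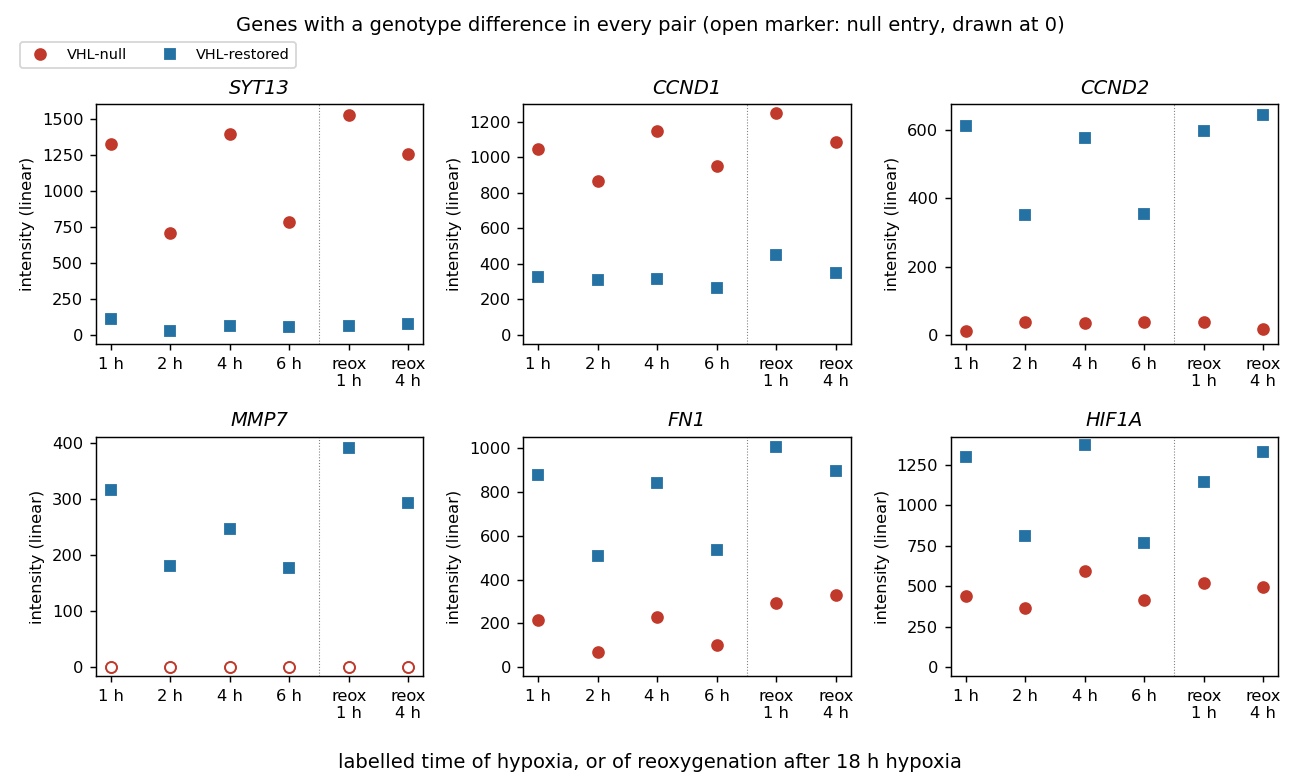
Linear intensity (vertical axis) of 6 genes on the 12 arrays, by labelled time (horizontal axis), with VHL-null arrays as red circles and VHL-restored arrays as blue squares; each marker is 1 array, an open marker is a null entry drawn at 0, and the dotted line divides hypoxia from reoxygenation. The genotypes do not overlap for any of the 6 genes: SYT13 and CCND1 are higher in VHL-null cells, and CCND2, MMP7, FN1 and HIF1A are lower.

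MMP7, a matrix metalloproteinase of epithelia, was the mirror image of EGLN3. It was null on all 6 VHL-null arrays and read 316, 181, 246, 177, 391 and 293 in VHL-restored cells. KL, or klotho, the renal co-receptor of FGF23, read 17, 21, 7, 27, 36 and null in VHL-null cells against 224, 203, 182, 180, 312 and 181. The KL difference was -2.87 ± 0.166. MMP7 and KL passed the filter on low values only through the VHL-restored cells, so no test is read for either. MAL2, a protein of transcytosis in polarised epithelia, had the same difference of -2.87 with a wider error of 0.412.

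D-type cyclins went in opposite directions. CCND1, cyclin D1, which drives entry into S phase, read 1048, 867, 1151, 951, 1249 and 1088 in VHL-null cells against 326, 310, 315, 261, 449 and 349. It was higher by 1.59 ± 0.0638 (log2, limma adjusted p = 9.79e-06). CCND2, cyclin D2, read 10, 38, 33, 38, 37 and 18 against 612, 352, 578, 355, 598 and 644. It was 12.4-fold lower (-3.63 ± 0.243). CCND2 passed the filter on low values through the VHL-restored cells, so it is counted but no test is read for it. CCND3 differed by -0.14 and was not called (adjusted p = 0.103). Neither CCND1 nor CCND2 overlapped between genotypes. Of the 8 tested genes of the list of D-type cyclins and G1 regulators, 2 were called higher and 1 lower. The share of all tested genes was 12.8% each way. The counts were the same without the pairs labelled 1 h and 4 h, against 5.32% higher and 3.66% lower of all tested genes. Besides CCND1, the gene called higher was CDKN1A, the inhibitor p21 (0.68).

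Among the regulators of HIF itself, HIF1A mRNA was lower in VHL-null cells. HIF1A encodes the HIF-1 alpha subunit, whose protein VHL controls. Its intensities were 442, 365, 592, 414, 519 and 495 against 1297, 813, 1372, 765, 1142 and 1327, with no overlap. The difference was -1.24 ± 0.0788 (limma adjusted p = 0.000118), or 2.36-fold. CITED2, an inhibitor that competes with HIF for its coactivator, was also lower (-0.89, adjusted p = 0.00376). HIF1AN, the asparaginyl hydroxylase that blocks the HIF coactivator site, was higher (0.48, adjusted p = 0.00399), as was ELOC, the elongin C subunit of the VHL ligase (0.25, adjusted p = 0.0036). The remaining 5 of 9 tested members were not called: CUL2, the ligase's cullin, differed by 0.01, ARNT, the HIF partner subunit, by -0.17, EGLN2 by -0.06, and the coactivator CREBBP by -0.06. USP33, a deubiquitinase, differed by 0.14. The 4 called members were 2 higher and 2 lower (22.2% of the 9 each way), against 12.8% of all tested genes each way. Of these 4, ELOC lost its call without the pairs labelled 1 h and 4 h (adjusted p = 0.0655). That left 1 higher and 2 lower, against 5.32% and 3.66% of all tested genes.

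Some genes of interest were too dim for the fit and were read by an exact sign-flip permutation test over the 6 pairs, two-sided, for which the smallest possible p is 0.03125. VHL itself read 53, 19, 42, 19, 48 and 106 in the cells labelled VHL-null and 8, 2, null, 1, 30 and null in the VHL-restored cells. It was thus higher in all 6 pairs in the cells labelled null, though its values were low, at most 106. VEGFA, the angiogenic growth factor and a HIF target, read 310, 71, 257, 92, 200 and 119 against 55, 1, 106, null, 64 and null, higher in 6 of 6 pairs. EGLN1, the main prolyl hydroxylase, was null on all 6 VHL-null arrays and listed on 3 of 6 VHL-restored arrays. VLDLR, a lipoprotein receptor and HIF target, was lower in all 6 pairs. For VHL, VEGFA and VLDLR the exact p was 0.03125, and 0.104 after adjustment over the 10 genes entered in this test, of which SIAH2 was null on all 12 arrays and had no value to test. The others did not reach this smallest p: ARNT2 was higher in 5 of 6 pairs, EP300 in 5, CXCR4 in 4, PFKFB3 in 3 and MXI1 in 2.

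The list of HIF targets has 42 genes, of which 36 are on the array and 30 passed the filter on low values. Of the 30, 6 (20%) were called higher and 3 (10%) lower over the 6 pairs, near the 12.8% of all tested genes in each direction, with a median of -0.07. The array sets differed: in the set 1 pairs alone 16 were called higher and 1 lower (8.1% and 6.12% of all tested genes), and in the set 2 pairs alone 6 were called higher and 12 lower (14.4% and 13.3%). Over the 6 pairs those higher were EGLN3, COXFA4L2, CA12, F3, P4HA1 and TGFA, and those lower were HMOX1, WSB1 and IGFBP3. EGLN3 passed the filter on low values only through the VHL-null cells, so it is counted but no test is read for it. CA12, a carbonic anhydrase of the cell surface that handles acid, read 683, 461, 608, 546, 758 and 689 in VHL-null cells. The VHL-restored values were 282, 72, 246, 113, 253 and 294, all lower. The difference was 1.59 ± 0.178, or 3.01-fold (limma adjusted p = 0.000797). F3, tissue factor, read 346, 312, 316, 325, 432 and 401 against 269, 87, 255, 94, 229 and 130 (1.02 ± 0.207, adjusted p = 0.0101). P4HA1, a collagen prolyl hydroxylase, was higher by 0.51 and TGFA, a growth factor of the EGF family, by 0.44.

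The classic hypoxia genes outside that group depended on the pair. BNIP3, a mitophagy receptor, read 443, 303, 412, 381, 476 and 412 in VHL-null cells, a narrow range. In VHL-restored cells it read 516, 74, 562, 186, 482 and 532, so that it was higher in VHL-null cells at 2 h and 6 h and lower in the other 4 pairs. ENO2 read 989, 714, 988, 813, 1041 and 910 against 1293, 281, 1309, 611, 1183 and 1274. NDRG1, a stress gene that hypoxia induces, read 1662, 1000, 1902, 1178, 1735 and 1429 against 1781, 422, 1854, 755, 1516 and 1655. For ENO2, as for BNIP3, only the 2 h and 6 h pairs had the VHL-null array on top, and NDRG1 added the 4 h and 1 h reoxygenation pairs by small margins.

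**Figure D2:**
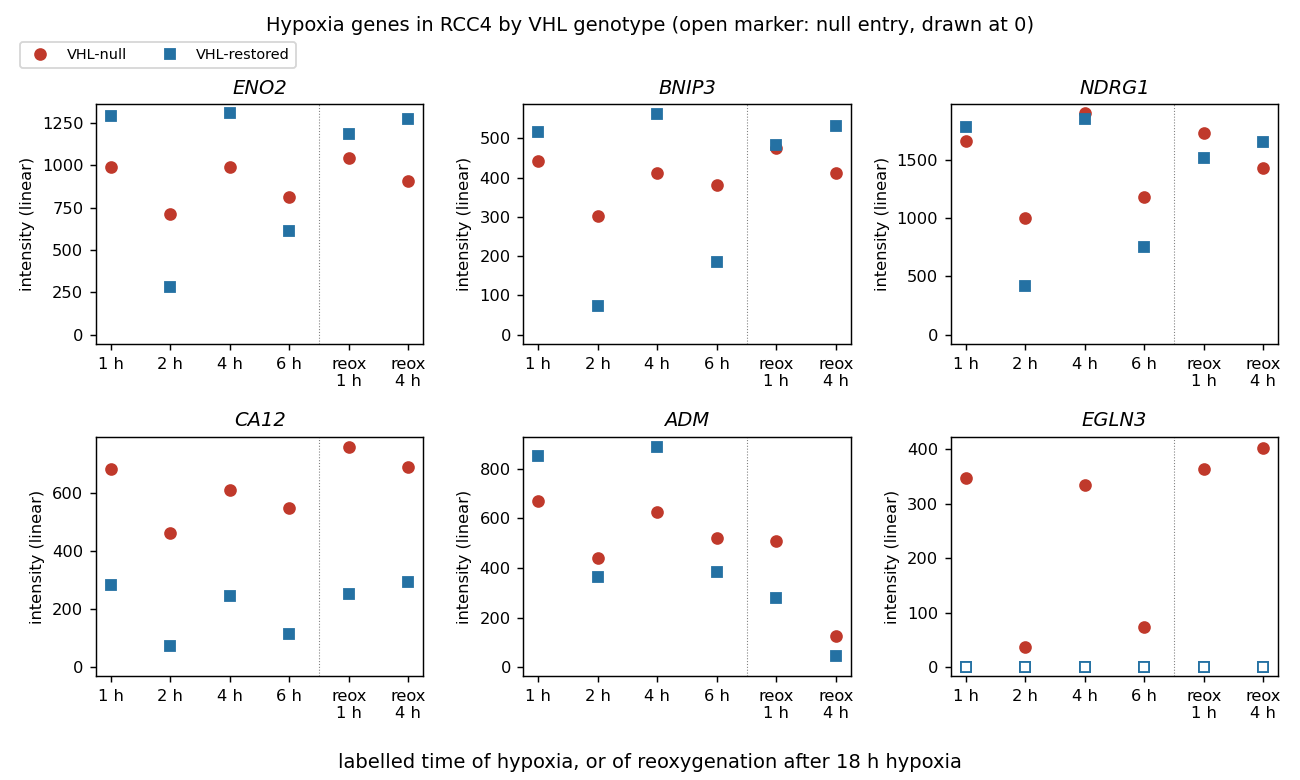
Linear intensity (vertical axis) of 6 hypoxia genes on the 12 arrays by labelled time (horizontal axis), VHL-null as red circles and VHL-restored as blue squares, 1 marker per array, open markers for null entries drawn at 0. ENO2, BNIP3 and NDRG1 are lowest in VHL-restored cells at 2 h and 6 h, CA12 and EGLN3 are higher in VHL-null cells in all 6 pairs, and ADM is lowest at 4 h of reoxygenation in both genotypes.

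Taking the 30 tested HIF targets pair by pair, 26 had a positive difference at 2 h and 20 at 6 h, against 10 at 1 h, 9 at 4 h, and 15 and 12 at 1 and 4 h of reoxygenation. Over all 7614 tested genes, 3913 were positive at 2 h, 3037 at 6 h, 3307 at 1 h and 3125 at 4 h. At 1 and 4 h of reoxygenation 3618 and 3241 of the 7614 were positive. The median difference was 0.35 at 2 h and 0.24 at 6 h, and between -0.20 and -0.01 in the other 4 pairs. The shift lay mostly in the VHL-restored cells. Their median level of these genes, as log2 relative to the array median, was 0.97 and 1.01 on the arrays labelled 1 h and 4 h but -0.10 and 0.18 at 2 h and 6 h. In VHL-null cells it stayed between 0.37 and 0.79. Without the pairs labelled 1 h and 4 h, 9 of 30 (30.0%) were called higher and none lower, against 5.32% and 3.66% of all tested genes. Those 9 were ADM, CA12, COXFA4L2, EGLN3 (counted, with no test read), F3, P4HA1, PFKFB4, PPP1R3C and TGFA. HMOX1, WSB1 and IGFBP3 were no longer called; in the 2 h and 6 h pairs alone HMOX1 differed by 0.08.

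Promoters of these genes are shown because HIF binds a short core, ACGTG or GCGTG, in hypoxia response elements, and because CA12, BNIP3, ENO2, LOX and P4HA2 behaved differently here. Each line gives the 250 bases before the RefSeq start (GRCh38.p14), 5′ to 3′ on the gene's own strand, with matches to either core on either strand in capitals. The windows are CA12 at chr15:63381847-63382096 (minus strand), BNIP3 at chr10:131981924-131982173 (minus strand), ENO2 at chr12:6914330-6914579 (plus strand), LOX at chr5:122078260-122078509 (minus strand) and P4HA2 at chr5:132227092-132227341 (minus strand).
CA12: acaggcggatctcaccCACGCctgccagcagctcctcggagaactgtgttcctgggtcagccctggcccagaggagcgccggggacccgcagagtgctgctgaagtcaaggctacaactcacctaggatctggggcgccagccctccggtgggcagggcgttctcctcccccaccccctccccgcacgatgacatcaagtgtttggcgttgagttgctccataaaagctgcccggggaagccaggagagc
BNIP3: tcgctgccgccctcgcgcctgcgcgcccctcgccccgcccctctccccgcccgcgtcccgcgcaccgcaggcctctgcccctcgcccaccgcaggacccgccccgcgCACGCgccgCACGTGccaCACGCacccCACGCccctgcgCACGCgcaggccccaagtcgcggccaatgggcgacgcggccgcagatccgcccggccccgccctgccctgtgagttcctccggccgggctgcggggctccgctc
ENO2: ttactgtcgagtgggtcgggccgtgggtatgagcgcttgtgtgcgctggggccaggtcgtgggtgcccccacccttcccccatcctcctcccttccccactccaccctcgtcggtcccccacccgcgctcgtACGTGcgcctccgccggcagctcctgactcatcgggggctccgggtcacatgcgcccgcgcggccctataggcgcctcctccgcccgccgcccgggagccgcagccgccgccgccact
LOX: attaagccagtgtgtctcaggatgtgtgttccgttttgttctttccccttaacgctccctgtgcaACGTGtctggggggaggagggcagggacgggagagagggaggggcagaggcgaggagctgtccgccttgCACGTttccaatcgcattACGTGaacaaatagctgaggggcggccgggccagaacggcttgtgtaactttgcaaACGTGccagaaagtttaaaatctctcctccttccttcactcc
P4HA2: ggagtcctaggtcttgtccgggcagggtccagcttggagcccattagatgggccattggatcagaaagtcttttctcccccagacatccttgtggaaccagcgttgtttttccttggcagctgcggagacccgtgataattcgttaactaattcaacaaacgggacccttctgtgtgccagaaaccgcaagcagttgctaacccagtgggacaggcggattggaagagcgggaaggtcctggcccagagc
BNIP3 held 6 matches, 2 of them overlapping on opposite strands of 1 palindrome, LOX held 4, CA12 and ENO2 held 1 each and P4HA2 held none. A core was present in the windows of 20 of the 24 tested HIF targets found in the promoter table (83.3%). The share was 55.8% of the 6210 tested genes in the table and 43.1% of all 27305 promoters. It was 61.8% among the genes called higher and 54.2% among those called lower over the 6 pairs. A match is a description of letters in this window and not evidence of a binding site.

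The genotype difference in the pairs labelled 1 h and 4 h was then set against that in the 2 h and 6 h pairs, a contrast chosen after the data had been seen. It was called for 63 of 7614 genes (0.827%), 23 with a more positive difference in the 1 h and 4 h pairs (0.302%) and 40 with a more negative one (0.525%). Of the 40, 23 changed sign, being higher in VHL-null cells at 2 h and 6 h and lower at 1 h and 4 h. Another 12 genes, among the 23, changed sign the other way. HIF targets supplied 6 of the 40 and 1 of the 23, and 28 of the 30 had a negative contrast, against 4134 of all 7614 tested genes. This contrast was fragile: no gene was called with null entries treated as missing or with no filter on low values, and leaving out 1 of the 4 hypoxia pairs left 2 to 11.

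LOX, lysyl oxidase, which cross-links collagen, had a contrast of -2.81, which ranged from -3.90 to -1.73 over the alternatives. Its VHL-restored entry at 2 h is null. LOX passed the filter on low values mostly through the VHL-restored cells, so it is counted but no test is read for it. Its intensities were 106, 29, 113, 67, 142 and 147 in VHL-null cells and 319, null, 302, 16, 222 and 281 in VHL-restored cells. VHL-null cells were thus higher at 2 h and 6 h and lower in the other 4 pairs. P4HA2, another collagen prolyl hydroxylase, differed by 2.22 at 2 h and 6 h and by 0.16 at 1 h and 4 h (contrast -2.07, limma adjusted p = 0.0204). The P4HA2 contrast ranged from -3.31 to -0.93 over the alternatives. CA12 kept its direction but its difference was 2.26 at 2 h and 6 h and 1.23 at 1 h and 4 h (contrast -1.04, adjusted p = 0.0451). F3 differed by 1.63 and 0.30 in the same order (contrast -1.33, adjusted p = 0.0451).

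HMOX1, heme oxygenase, read 308, 407, 285, 332, 328 and 247 in VHL-null cells and 886, 372, 871, 314, 731 and 712 in VHL-restored cells. It was lower in VHL-null cells in the 4 pairs of set 2 and slightly higher in the 2 of set 1 (contrast -1.62, limma adjusted p = 0.0157). ERO1A, an oxidase of disulfide formation, went from 0.17 to -1.06 (contrast -1.23, adjusted p = 0.0204). GYS1, muscle glycogen synthase, went from 0.39 to -0.82 (contrast -1.21, adjusted p = 0.0204). ERO1A and GYS1 are named for their place in the HIF and glycolysis lists after their values had been seen. BNIP3 (adjusted p = 0.0515), ADM (0.0735), ENO2 (0.091) and NDRG1 (0.0937) were not called, although BNIP3 differed by 1.38 at 2 h and 6 h and by -0.34 at 1 h and 4 h.

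Genes outside the HIF list behaved in both ways. NRN1, neuritin, read 227, 217, 203, 240, 319 and 295 in VHL-null cells and 235, 44, 224, 75, 210 and 226 in VHL-restored cells, close to the pattern of BNIP3. RBMS3, an RNA-binding protein, and CAMK1D, a calcium-dependent kinase, had contrasts of -1.82 and -1.76. Over the alternatives these ranged from -2.80 to -0.90 and from -3.46 to -0.59. The complement protein C3 and MAL2 were lower in VHL-null cells in all 6 pairs, by more in the 1 h and 4 h pairs (contrasts -1.81 and -2.73). The MAL2 contrast ranged from -4.11 to -1.50 over the alternatives, and that of C3 from -2.25 to -1.44. Positive contrasts were called for COL12A1, a collagen (1.98), FILIP1L (1.43), NATD1 (1.33), SNRPA1 (1.29), ASRGL1 (1.24), the fatty acid desaturase FADS2 (1.22) and the actin-binding TAGLN (1.20). EGLN3 was called too, but it was null on every VHL-restored array, so its contrast holds only its own dimmer VHL-null values at 2 h and 6 h and is not ranked.

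**Figure D3:**
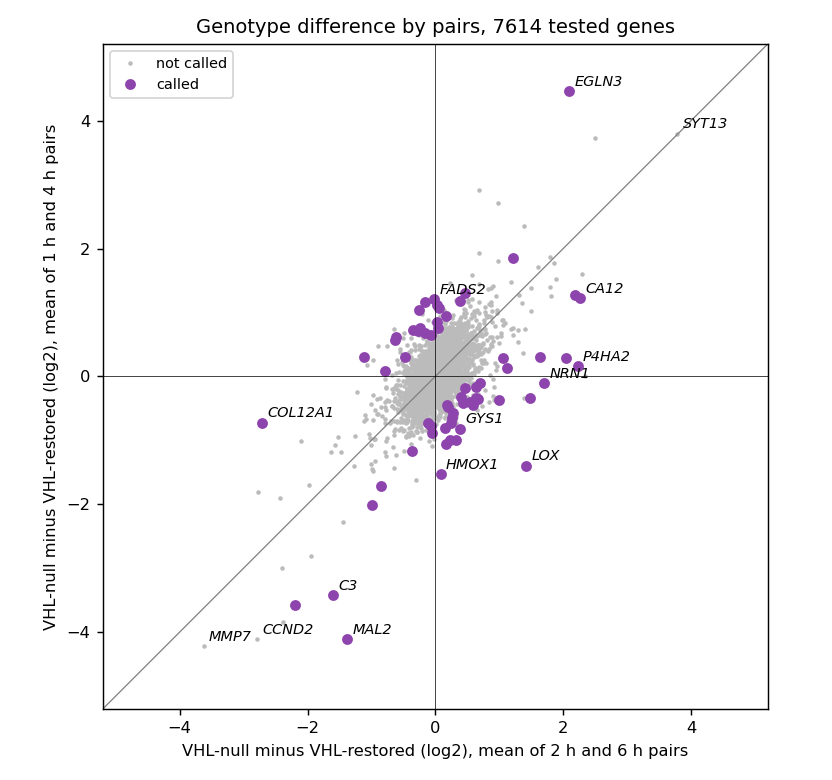
Each point is 1 of the 7614 tested genes: the mean VHL-null minus VHL-restored difference (log2) in the 2 h and 6 h pairs on the horizontal axis and in the pairs labelled 1 h and 4 h on the vertical axis, with the line of equal differences; the 63 genes whose contrast was called are purple and 14 genes are named. SYT13 lies on the line at about equal differences, LOX, NRN1 and GYS1 lie to the lower right and COL12A1 to the upper left of it.

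Glycolysis followed the same division. Of 16 tested genes of glycolysis and glucose uptake, 1 was called higher over the 6 pairs and none lower, against 12.8% of all tested genes each way. The 1 called was SLC2A3, the glucose transporter GLUT3 (0.36, limma adjusted p = 0.0104). Without the pairs labelled 1 h and 4 h, again 1 was called higher and none lower, against 5.32% and 3.66% of all tested genes. At 2 h and 6 h, 15 and 14 of the 16 were higher in VHL-null cells, with medians of 0.31 and 0.20. In the other 4 pairs 1 to 4 of 16 were higher, with medians between -0.24 and -0.07. Over all 7614 tested genes, 3913 and 3037 were higher at 2 h and 6 h, and 3125 to 3618 in the other 4 pairs. LDHA, lactate dehydrogenase A, differed by 0.22 over the 6 pairs and was not called (adjusted p = 0.055), and ENO2 differed by 0.01. HK1, hexokinase 1, went from 0.64 at 2 h and 6 h to -0.16 at 1 h and 4 h, a called contrast of -0.80 (adjusted p = 0.03). The sign of the list's median over all 6 pairs turned with scaling, at -0.0039 here and 0.04 with quantile normalization.

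Genes of DNA replication were higher in VHL-null cells. Of 16 tested S phase genes 12 (75.0%) were called higher and none lower, against 12.8% of all tested genes, with a median of 0.48. MCM3, a subunit of the replicative helicase, read 243, 95, 187, 122, 313 and 319 against 124, 57, 117, 61, 189 and 147 (0.74 ± 0.0656, limma adjusted p = 0.000307). RRM1, the large subunit of ribonucleotide reductase, read 518, 169, 527, 222, 675 and 625 against 342, 111, 305, 124, 348 and 310 (0.72 ± 0.0552, adjusted p = 0.000199). In every pair the VHL-null array was higher, although the genotypes overlap over the 12 arrays, both genes reading lowest at 2 h and 6 h in either genotype. The clamp PCNA (0.62), the flap nuclease FEN1 (0.63), the clamp loaders RFC2 (0.59) and RFC5 (1.16) and the glycosylase UNG (0.59) were called too. MCM5, TYMS, TK1 and LIG1 were the 4 not called, at 0.03 to 0.13.

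Mitotic genes were higher too. Of 14 tested genes of G2 and mitosis, 8 (57.1%) were called higher and none lower, against 12.8% of all tested genes each way, with a median of 0.24. PTTG1, securin, read 919, 718, 950, 763, 1102 and 1021 against 609, 527, 571, 532, 803 and 619 (0.53 ± 0.0511, limma adjusted p = 0.000424). CKS2, a small partner of cyclin-dependent kinases, differed by 0.74 and CCNA2, cyclin A2, by 0.51, both without overlap between genotypes. The mitotic kinesins KIF20A (0.91) and KIF2C (1.06) were higher as well. TOP2A, CDC25B, KPNA2, CDC20, UBE2C and BIRC5 lay between -0.04 and 0.16 and were not called. Without the pairs labelled 1 h and 4 h, 8 of 16 S phase genes and 4 of 14 mitotic genes were called higher and none lower, against 5.32% of all tested genes. In these unsorted cultures, a larger share of cycling cells and more RNA per cell cannot be told apart.

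**Figure D4:**
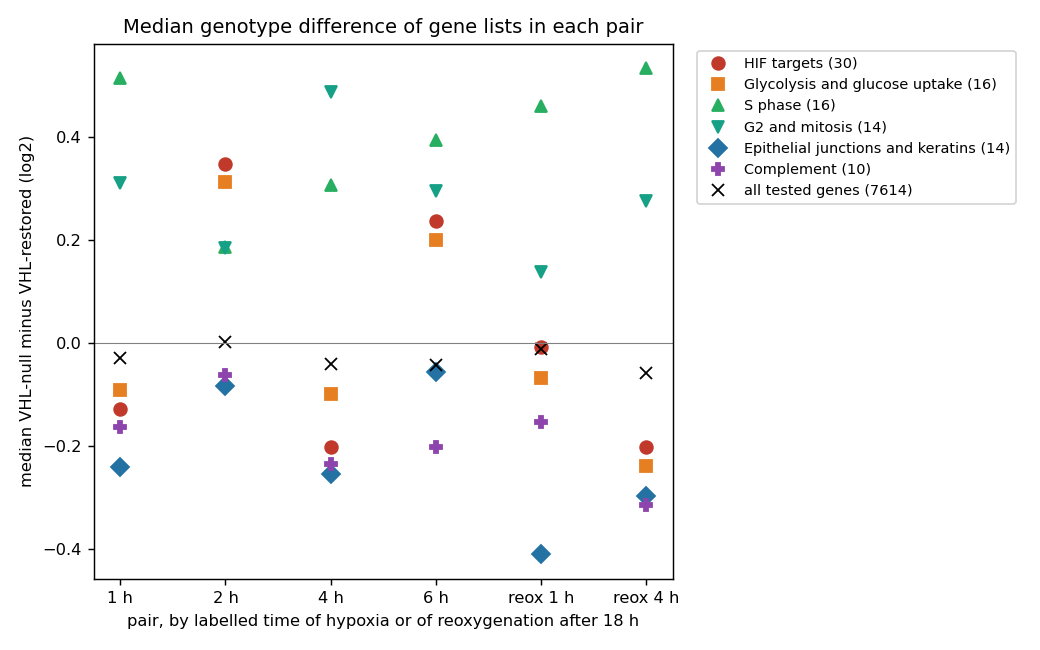
Median VHL-null minus VHL-restored difference (log2, vertical axis) of 6 gene lists and of all 7614 tested genes in each of the 6 pairs (horizontal axis); 1 marker per list and pair, tested members in brackets, no error bars because each pair has 1 array per genotype. The medians of S phase and mitotic genes are above 0 in all 6 pairs, those of epithelial and complement genes are below 0 in all 6, and those of HIF targets and glycolysis are above 0 only at 2 h and 6 h.

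Complement genes were lower in VHL-null cells, 6 of 10 tested (60%) against 12.8% of all genes, with 1 higher. C1S, a protease of the first complement component, read 43, 102, 44, 107, 29 and 52 against 733, 528, 638, 527, 780 and 732. That was 9.28-fold lower (-3.21 ± 0.27). Its partner C1R differed by -0.85, and C3, the central protein of the cascade, by -2.85. CFI, which inactivates C3b, read 1, 43, 8, 44, null and 14 against 317, 287, 232, 293, 415 and 311. C1S, C3, C1R and CFI did not overlap between genotypes. C1S and CFI passed the filter on low values through the VHL-restored cells, so they are counted but no test is read for either. CFB (-0.18) and CD46 (-0.11) were called with small differences, and SERPING1, the C1 inhibitor, was the gene called higher (0.53). With no centring 4 of 10 were lower and 1 higher, against 7.67% and 14.2% of all tested genes. Without the pairs labelled 1 h and 4 h, the 4 genes with large differences were called lower and SERPING1 higher. The shares of all tested genes were then 3.66% lower and 5.32% higher. C1S and CFI are counted in both.

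Epithelial genes were lower too. Of 14 tested junction and keratin genes 6 (42.9%) were called lower and none higher, against 12.8% of all tested genes each way, with a median of -0.22. Without the pairs labelled 1 h and 4 h, 4 were called lower and none higher, against 3.66% and 5.32% of all tested genes. KRT18, a keratin of simple epithelia, read 361, 141, 345, 170, 396 and 403 against 732, 740, 701, 678, 951 and 631, with no overlap (-1.37 ± 0.198, limma adjusted p = 0.00234). CLDN1, a tight junction protein, was lower as well (-1.24, adjusted p = 0.000226), with the desmosomal cadherin DSG2 (-0.40) and KRT8, the partner of KRT18 (-0.37). KRT19 (-0.36) and JUP, plakoglobin (-0.31), were called as well but not without the pairs labelled 1 h and 4 h. The other 8 were not called: MUC1, a mucin, differed by -0.51, CD24 by 0.11, and DSP, PKP3, ELF3, CLDN4, OCLN and CDH6 by -0.13 to -0.01.

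Matrix and adhesion genes went both ways, 5 of 29 higher (17.2%) and 7 lower (24.1%) against 12.8% of all tested genes each way. Without the pairs labelled 1 h and 4 h, 1 was called higher and 6 lower, against 5.32% and 3.66% of all tested genes. MMP7, for which no test is read, is counted among those lower in both. FN1, fibronectin, whose deposition is known to need VHL, read 216, 69, 227, 103, 293 and 328 against 879, 506, 840, 533, 1005 and 895. That was 3.97-fold lower (-1.99 ± 0.131, limma adjusted p = 0.000122) with no overlap. CCN2, connective tissue growth factor, was lower (-2.01), as were COL8A1, a collagen outside the list (-2.24), and TIMP2, an inhibitor of metalloproteinases (-0.94). PLAU, urokinase, was higher (1.42, adjusted p = 0.000988), with COL1A1 (0.53), COL6A3 (0.49), ITGB5 (0.40) and VCAN (0.26). Of these 5, PLAU alone was called without the pairs labelled 1 h and 4 h. VIM, the mesenchymal filament vimentin, differed by -0.02 and was not called.

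**Figure D5:**
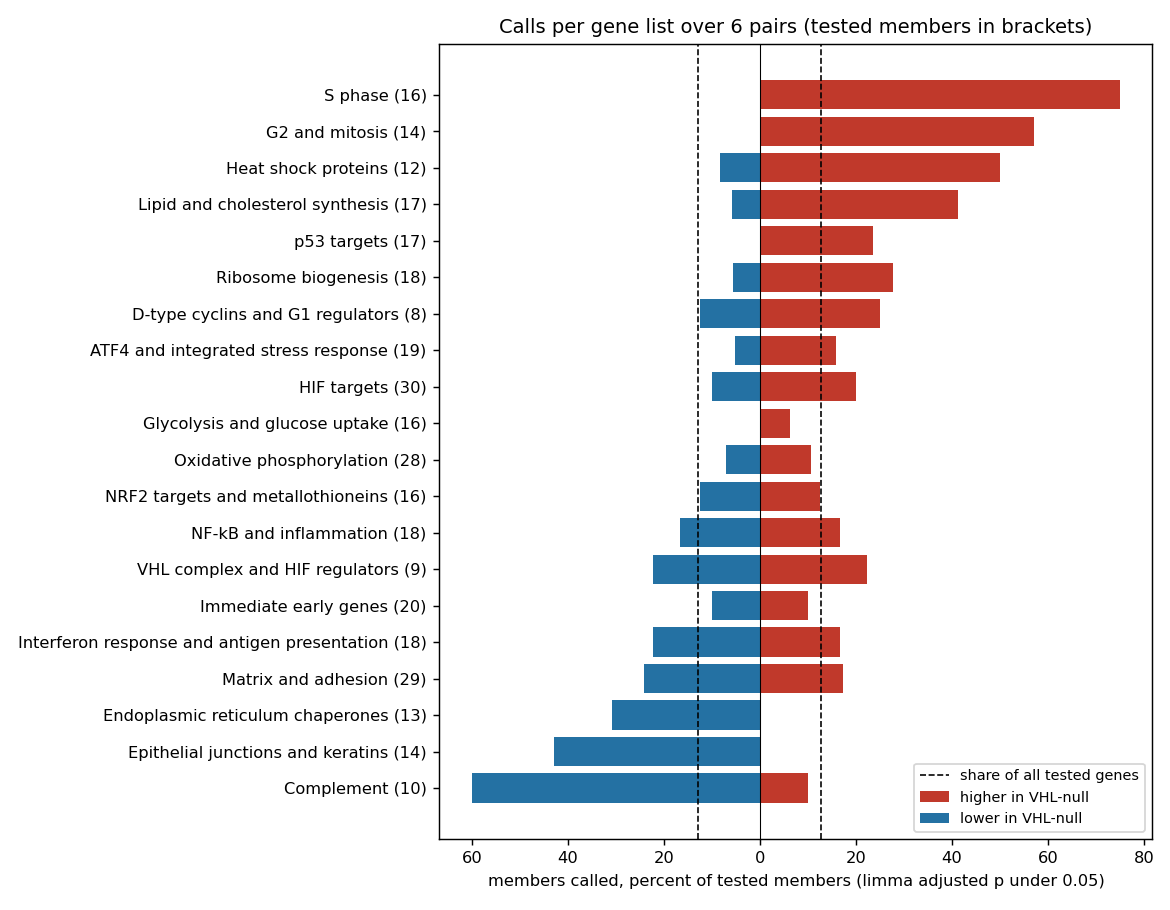
Share of tested members called over the 6 pairs (percent, limma adjusted p under 0.05) for 20 gene lists, higher in VHL-null cells to the right in red and lower to the left in blue, with the number of tested members in brackets and dashed lines at 12.8%, the share of all tested genes in each direction. S phase (75.0% higher) and complement (60% lower) lie at the ends, and HIF targets (20% higher, 10% lower) lie near the dashed lines.

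Lipid and cholesterol synthesis had 7 of 17 genes higher (41.2%) and 1 lower, against 12.8% of all tested genes each way. Without the pairs labelled 1 h and 4 h it had 4 higher and none lower, against 5.32% and 3.66% of all tested genes. In the set 1 pairs alone it had 3 higher and 1 lower, against 8.1% and 6.12%. SCD, stearoyl-CoA desaturase, read 479, 473, 484, 428, 544 and 566 against 330, 289, 354, 295, 292 and 344, with no overlap (0.58 ± 0.0567, limma adjusted p = 0.000446). FADS1 (0.70), FADS2 (0.76), DHCR7 (0.66), IDI1 (0.58), SQLE (0.34) and NSDHL (0.32) were the others called higher, and SREBF1, a regulator of the pathway, was lower (-0.20). FADS2, DHCR7, IDI1, SQLE and SREBF1 were not called without the pairs labelled 1 h and 4 h. FADS2 and DHCR7 were higher in the pairs of set 2 and near 0 at 2 h and 6 h (-0.01 and 0.06), and the list's median was 0.06 in those 2 pairs and 0.44 after reoxygenation.

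Stress programmes differed in their counts, to be read against 12.8% of all tested genes each way over the 6 pairs. Without the pairs labelled 1 h and 4 h, the shares of all tested genes were 5.32% higher and 3.66% lower. Of 12 heat shock genes 6 were higher and 1, CRYAB, lower (-0.53); HSPA9, the mitochondrial HSP70, and HSPA4 were each higher by 0.36. Heat shock calls came to 9 higher and 1 lower with no centring, against 14.2% and 7.67% of all tested genes. They came to 3 higher and 1 lower without the pairs labelled 1 h and 4 h. Of 13 endoplasmic reticulum chaperone genes 4 were lower (30.8%) and none higher: DNAJB11 (-0.41), HERPUD1 (-0.40), XBP1 (-0.27) and SEL1L (-0.20). Only HERPUD1 was called without the pairs labelled 1 h and 4 h. Of 17 p53 targets 4 were higher (23.5%) and none lower: DDB2, a DNA repair protein (0.74 ± 0.0546, limma adjusted p = 0.000176), CDKN1A, RRM2B (0.60) and CCNG1 (0.38). RRM2B lost its call without the pairs labelled 1 h and 4 h (adjusted p = 0.0502), leaving 3. DDB2 read 669, 118, 852, 163, 610 and 581 against 366, 71, 464, 77, 348 and 369, higher in all 6 pairs. MDM2, another p53 target, differed by 0.12 and was not called.

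Inflammatory genes were called in both directions, 3 of 18 higher and 3 lower (16.7% each), near the 12.8% of all tested genes. Without the pairs labelled 1 h and 4 h, 1 was higher (5.56%) and 3 lower (16.7%). The shares of all tested genes were then 5.32% higher and 3.66% lower. IL6, interleukin 6, read 1124, 145, 725, 143, 1044 and 919 against 482, 90, 582, 18, 160 and 140 (1.55 ± 0.321, limma adjusted p = 0.0109). Its difference was 2.51 after reoxygenation, 1.40 at 2 h and 6 h and 0.74 at 1 h and 4 h. ICAM1, an adhesion molecule (-0.75), and the mitochondrial dismutase SOD2 (-0.59) were lower. Interferon genes gave 3 higher and 4 lower of 18, and none either way without those pairs. Immediate early genes gave 2 and 2 of 20 (3 and 2 without the pairs), and genes of the integrated stress response 3 and 1 of 19 (1 and 0 without them). Oxidative phosphorylation gave 3 and 2 of 28 (0 and 1 without them), ribosome biogenesis 5 and 1 of 18 (3 and 0), and NRF2 targets with metallothioneins 2 and 2 of 16 (1 and 1). Apart from ribosome biogenesis (27.8% higher) and interferon genes (22.2% lower), these shares over the 6 pairs lay near or below the 12.8% of all tested genes. Without the pairs labelled 1 h and 4 h, ribosome biogenesis had 16.7% higher, and immediate early genes 15% higher and 10% lower. These lay above the 5.32% and 3.66% of all tested genes. Among the NRF2 targets, TXNRD1, thioredoxin reductase, was lower (-0.72, adjusted p = 0.000206).

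Whether the genotype difference changed during hypoxia was asked by setting the 4 h and 6 h pairs against the 1 h and 2 h pairs. limma called 0 of 7614 genes (0%), with 201 at an unadjusted p under 0.05 and a smallest adjusted p of 0.998. The pairs on each side come from different array sets and include the arrays whose labels are in doubt. Genes with the largest moderated t here had small contrasts that were not called, such as 0.44 for EIF4ENIF1, a regulator of translation, and -0.38 for DPYSL5. No other tool was run.

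Return of oxygen was asked about by setting the 2 reoxygenation pairs against the 4 h and 6 h pairs. Again 0 of 7614 genes (0%) were called, with 545 at an unadjusted p under 0.05 and a smallest limma adjusted p of 0.646. Without the 1 h reoxygenation pair 7 were called, but reoxygenation is then 1 pair, assumed to vary like the hypoxia pairs, and that pair holds the VHL-restored array with the most null entries: EPC2, FBXO5, PALB2, PHKA2, PLK2, SLC38A2 and ZMIZ1, by 1.91 to 3.17. PLK2, a p53-responsive kinase, read 851 and 174 in VHL-null cells and 456 and 6 in VHL-restored cells after 1 and 4 h of reoxygenation. These 7 are named after their values had been seen.

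ADM, adrenomedullin, a vasodilator peptide and HIF target, was lowest at 4 h of reoxygenation in both genotypes. It read 669, 442, 626 and 522 in hypoxia and 508 and 126 after 1 and 4 h of reoxygenation in VHL-null cells, against 852, 364, 887 and 382, then 280 and 45, in VHL-restored cells. The genotype difference was -0.43 in the pairs labelled 1 h and 4 h, 0.33 at 2 h and 6 h and 0.95 after reoxygenation, and was not called over the 6 pairs (0.28, limma adjusted p = 0.337). EGR1, an immediate early transcription factor, read 293 and 252 in VHL-null cells after 1 and 4 h of reoxygenation and 71 and 15 in VHL-restored cells, and was not called over the 6 pairs (0.98, adjusted p = 0.143), though it was without the pairs labelled 1 h and 4 h (1.66, adjusted p = 0.0415). By contrast BNIP3 and ENO2 stayed high after reoxygenation in VHL-restored cells, at 482 and 532 and at 1183 and 1274. Among genes with the largest moderated t in this contrast, ABL2, a tyrosine kinase, had 0.92, and the adhesion receptors ADGRG1 and VCAM1 had -0.77 and -0.70; none of these contrasts was called.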

How the data were processed

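The deposited table of the series holds 1 column per array of linear intensity values, whole numbers from an Affymetrix array; the authors' software, scaling and the meaning of a null entry are not given in the sources used here. Null entries were taken as 0, and each value became log2(intensity + 16). The table has 35409 probe sets, of which 17478 are in GEO's platform annotation and 16905 name 1 gene (573 name several and were left unnamed); 16881 of the single-gene probe sets matched RefSeq by Entrez ID. The brightest probe set stood for each of 12690 genes, and the upper 60% by mean over the 12 arrays, 7614 genes, were tested after centring each array on their median. A gene bright in 1 genotype only could pass this filter, and counts of called genes and list members include such genes.

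limma 3.58.1 in R 4.3.3 fitted genotype with time as a block (5 residual degrees of freedom), or a genotype difference per phase for the contrasts (3 residual degrees of freedom), with Benjamini-Hochberg adjustment over all tested genes and a threshold of 0.05. The scripts were tested on simulated data. Differences are VHL-null minus VHL-restored. The number of arrays limits the precision.

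Members, gene lists and tests were chosen with earlier results of these data known. The genes named are the 10 largest in each direction among those called with 1 sign in all 6 pairs, up to 4 members of each list by moderated t, every HIF regulator, and up to 8 genes each way per contrast (up to 4 where none was called); other members are given to complete a list. Promoter windows are RefSeq GRCh38.p14, 250 bases long. Alternatives covered centring, scaling, pseudocounts of 4 and 64, null entries, filters, probe set rule, blocks and left-out pairs.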

Additional observations from a re-analysis of the deposited data

Results flagged for a closer look

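In 18 of the genes named above, the genotype difference in the pairs labelled 1 h and 4 h differed from that in the 2 h and 6 h pairs by limma's test of the difference itself. ERO1A, GYS1 and HK1, also named above, were called as well and are not among the 18. The contrast was chosen after the data had been seen, and it called 0 genes with null entries as missing or with no filter on low values. The log2 contrast was positive for EGLN3 (2.37), COL12A1 (1.98), FILIP1L (1.43), NATD1 (1.33), SNRPA1 (1.29), ASRGL1 (1.24), FADS2 (1.22) and TAGLN (1.20). It was negative for LOX (-2.81), MAL2 (-2.73), P4HA2 (-2.07), RBMS3 (-1.82), C3 (-1.81), NRN1 (-1.81), CAMK1D (-1.76), HMOX1 (-1.62), F3 (-1.33) and CA12 (-1.04). EGLN3 was null on all 6 VHL-restored arrays, so its value holds only the dimmer VHL-null arrays at 2 h and 6 h against a floor. LOX passed the filter on low values mostly through the VHL-restored cells, so it is counted but no test is read for it. These sides of the contrast are also the hypoxia pairs of the 2 array sets, so array set and labelled time cannot be told apart.

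Of 94 named genes of the 6-pair comparison, 2 had 1 pair far from the other 5, and chance alone gives such a pair in about 1 in 20 genes. NSDHL, a sterol synthesis enzyme, differed by 0.12 in the 2 h pair and by 0.32 to 0.38 in the others. SARS1, a transfer RNA synthetase, differed by -0.075 in the 4 h reoxygenation pair and by 0.18 to 0.25 in the others.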

How the results depend on the processing

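The count of 1951 genes stayed within 1.5 times under every scaling, pseudocount, null-entry, filter and probe set alternative (1389 to 2096) and with the intensity trend (2203) or the array set as block (1993). It was 511 with no time block, 1045 in the hypoxia pairs only, 883 in the reoxygenation pairs only, 1083 in the pairs of array set 1 only and 684 without the pairs labelled 1 h and 4 h. Each of the last 4 has fewer arrays, but so do the pairs of array set 2 only, which gave 2107. Leaving out 1 pair at a time gave 1167 to 2201 genes, with the 1 h (1167), 4 h (1261) and 1 h reoxygenation (1187) pairs each moving the count by over 1.5 times. With the 0 h and 18 h arrays added, 10 pairs with time and replicate block gave 2632. The contrast of the pairs labelled 1 h and 4 h against 2 h and 6 h, called for 63 genes, gave 122 with quantile normalization, 33 and 210 with pseudocounts of 4 and 64, 0 with null entries as missing and 0 with no filter; leaving out pairs gave 2 to 328. The cause was not tested. The other 2 contrasts called 0 genes under all alternatives run, a separate difference for each array set included, except 7 for reoxygenation without the 1 h reoxygenation pair (range 0 to 7). HMOX1 turned to 0.083 in the pairs of array set 1 only. Of 85 called named genes, 61 were called the same way without the pairs labelled 1 h and 4 h and 79 without the 4 h reoxygenation pair. Dim genes, null on several arrays, have no reliable fold.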
